A study of Mus musculus with 31 samples.

Results

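In the accessible chromatin of NIH-3T3 cells, a minority of distal sites lay close together in dense clusters. The clusters were chosen by a rule on position in the list of ATAC-seq peaks. Peaks on chromosomes 1 to 19 that lay more than 1 kb from every annotated transcription start site (TSS) were taken as distal. Neighbouring distal peaks were joined into a group wherever the gap between them was at most 12.5 kb, and groups of at least 6 distal peaks were kept. Of 63456 peaks in the list, 46355 were distal by this rule, and they formed 26170 groups. The rule kept 697 groups, named here C001 to C697 in falling order of summed fold enrichment. They held 5263 peaks, or 11.4% of the distal peaks (95% exact binomial interval 11.1 to 11.6%). ATAC-seq marks DNA that the transposase Tn5 can reach, and the fold enrichment of a peak is the number of fragments over its summit relative to the number expected locally, with 1 added to each.

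The cells were parental NIH-3T3, an immortalised and aneuploid line of mouse embryonic fibroblasts that carries no transcription factor (TF) transgene, and the labels list no treatment for it beyond routine culture in serum. The methods describe doxycycline for NIH-3T3 cells before ATAC-seq without naming the parental line, so whether this library had it is not settled here. A single library was analysed, so no value here has a replicate error and no test between samples was possible. The other 30 samples of the series, which overexpress TFs or the rtTA3G activator alone, were not analysed here. Intervals below cover counting error only, since peaks of one library are not replicates. As a check of the label, all 12 genes of a fibroblast marker list had a peak within 1 kb of a TSS, as against 5 of 18 epithelial, 0 of 15 neuronal, 5 of 15 blood and 3 of 14 endoderm and liver genes, and 55% of all 20807 coding genes on chromosomes 1 to 19. In a longer list of fibroblast matrix genes, 31 of 40 had such a peak. The lists were chosen with earlier results of these data known, so the check is not independent of them.

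Distal accessible sites are mostly enhancers, stretches of DNA where TFs bind and from where they act on promoters that can lie far away. Enhancers of genes that are characteristic of a cell type often sit in dense groups, known as clustered or super-enhancers. In fibroblasts, AP-1 (dimers of FOS and JUN proteins), TEAD factors and RUNX factors are among the TFs known to bind such sites. ATAC-seq shows openness but neither enhancer activity nor the gene a site acts on, so genes are given below only by overlap and by distance.

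The strongest peak of 6 of the 10 clusters with the highest summed fold is shown first, as the 101 bases centred on its summit. The reference sequence is mm10 (GRCm38) on the plus strand. The first 3 windows belong to the clusters at the top of the ranking and hold no AP-1 letters. The next 3 belong to all clusters of the top 10 whose strongest peak holds them. Capitals mark matches to the short motifs searched in all summit windows on both strands, of which TGACTCA or its reverse complement TGAGTCA is the AP-1 site.
C001 (chr2:125368729-125368829): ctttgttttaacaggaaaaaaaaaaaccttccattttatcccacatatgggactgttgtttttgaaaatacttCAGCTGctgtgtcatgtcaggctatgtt
C002 (chr2:117010331-117010431): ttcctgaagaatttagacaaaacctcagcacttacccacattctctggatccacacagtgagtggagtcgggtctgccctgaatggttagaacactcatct
C003 (chr6:135322792-135322892): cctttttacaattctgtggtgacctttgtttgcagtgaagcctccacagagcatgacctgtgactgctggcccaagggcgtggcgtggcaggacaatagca
C006 (chr5:66550497-66550597): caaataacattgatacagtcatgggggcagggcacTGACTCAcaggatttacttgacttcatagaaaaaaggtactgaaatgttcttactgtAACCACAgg
C009 (chr5:151129852-151129952): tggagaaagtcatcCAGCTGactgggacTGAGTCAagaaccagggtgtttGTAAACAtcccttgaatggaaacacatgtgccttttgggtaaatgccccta
C010 (chr12:35209573-35209673): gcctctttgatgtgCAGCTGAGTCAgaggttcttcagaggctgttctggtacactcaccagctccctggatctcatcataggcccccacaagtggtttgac
The window of C001 holds an E-box (CAGCTG), and those of C002 and C003 hold none of the 11 motifs searched. The window of C006 holds an AP-1 site and a RUNX site (TGTGGTT, here read from the other strand). That of C009 holds an E-box, an AP-1 site and a forkhead site (TGTTTAC), and in C010 the E-box and the AP-1 site overlap.

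A second set of windows comes from clusters at genes of fibroblast matrix and cytoskeleton, chosen because the strongest peak of each holds the AP-1 letters, which are in capitals.
C204, nearest to Fn1 (chr1:71763717-71763817): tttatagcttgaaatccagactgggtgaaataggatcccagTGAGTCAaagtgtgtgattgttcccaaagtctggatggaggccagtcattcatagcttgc
C361, overlapping Col3a1 (chr1:45288056-45288156): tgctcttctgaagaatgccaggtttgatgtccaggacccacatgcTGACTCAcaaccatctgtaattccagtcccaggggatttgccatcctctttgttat
C244, over Actb (chr5:142920892-142920992): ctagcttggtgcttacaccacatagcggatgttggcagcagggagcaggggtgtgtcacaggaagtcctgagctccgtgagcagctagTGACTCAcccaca
C023, nearest to Has2 (chr15:56554456-56554556): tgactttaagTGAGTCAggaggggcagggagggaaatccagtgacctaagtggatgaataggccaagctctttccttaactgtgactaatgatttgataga
C184, nearest to Tnc (chr4:64098422-64098522): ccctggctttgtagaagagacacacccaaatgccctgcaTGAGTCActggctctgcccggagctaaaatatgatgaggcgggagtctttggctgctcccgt

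Most distal peaks stood alone or in small groups. A single peak made up 16036 groups, and 5488 groups were pairs. Among the clusters, 280 held 6 peaks and 179 held 7, together 65.9% of the 697, while 93 held 10 or more. The largest held 28. Just outside the rule were 579 groups of 5 peaks, with a median span of 21.2 kb and a median summed fold of 31.8. Just inside it, the clusters of 6 peaks had a median span of 27.7 kb and a median summed fold of 38.5. The counts fell smoothly from one size to the next, so that the threshold of 6 cuts a continuous distribution.

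**Figure D1:**
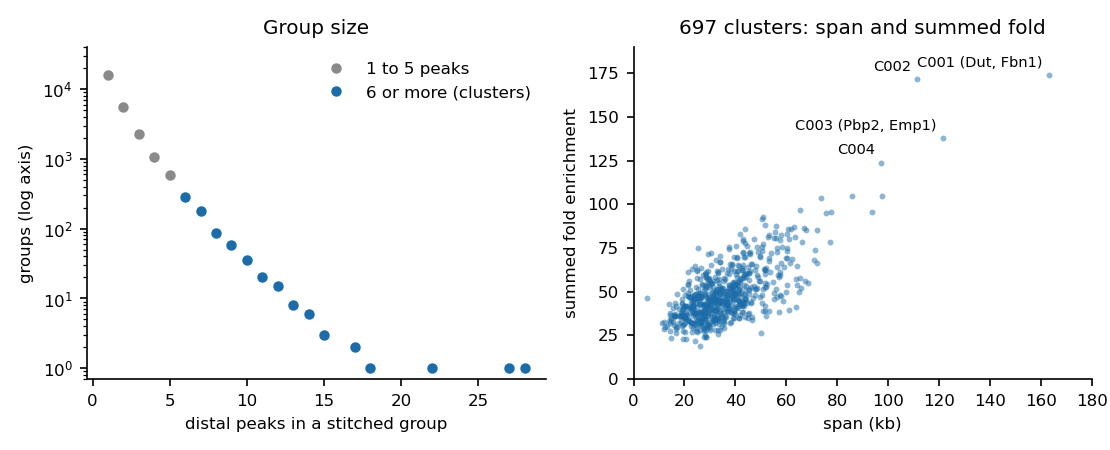
Left, number of stitched groups (log axis) against the number of distal peaks in the group, with the 697 clusters of 6 or more peaks in blue and smaller groups in grey. Right, summed fold enrichment against span in kb, 1 point per cluster, where C001 and C002 stand at the top with 174.0 and 171.6 and the median cluster at 45.7 and 33.3 kb.

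A typical cluster covered a long stretch of DNA, of which a small share was open. The span had a median of 33.3 kb (quartiles 26.2 and 42.6 kb) and ranged from 5.17 to 163.1 kb. Peaks covered a median of 8.0% of the span (quartiles 6.33 and 9.82%), with 2.12 peaks per 10 kb. The gap between neighbouring distal peaks of a cluster had a median of 4.71 kb, and 16.1% of the gaps were under 1 kb. All spans together came to 25052.5 kb, or 1.05% of the sequence of chromosomes 1 to 19 without N bases.

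The summed fold had a median of 45.7 (quartiles 37.9 and 55.5) and ranged from 18.8 to 174.0. Only 7 clusters exceeded a summed fold of 100. The sum followed the number of peaks, as its construction implies, whereas the mean fold per peak hardly varied with that number (Spearman correlations of 0.65 and -0.07 over the 697 clusters, which share one library and are given as a description). The strongest peak of a cluster had a median fold of 11.4, and it supplied a median of 24.3% of the cluster's sum. In no cluster did 1 peak supply more than 44.8%.

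The cluster with the highest sum, the most peaks and the widest span was C001 on chromosome 2 (chr2:125206364-125369469). Its 28 peaks summed to 174.0 and ranged in fold from 2.88 to 14.9 with a median of 5.48. It began within Slc12a1, which encodes a kidney sodium, potassium and chloride cotransporter, contained the whole of Dut, which encodes the enzyme dUTPase, and ended within Fbn1, which encodes fibrillin-1, a protein of the microfibrils of the matrix. Of its peaks, 18 lay in introns and 10 between genes, and only 3 had the AP-1 letters. The peak with the highest fold lay in an intron at the far end of the span, with 120 fragments at its summit.

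C002 lay between coding genes on the same chromosome (chr2:116912468-117023722). Its 22 peaks summed to 171.6, nearly as much as the 28 peaks of C001, since its peaks were higher, with a median fold of 6.91 and a range of 3.35 to 15.2. Its AP-1 count was the highest of all clusters, with the letters in 8 peaks. The nearest coding TSS was that of Tmco5 at 24.3 kb, which had no peak within 1 kb. No coding gene overlapped the span.

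C003 on chromosome 6 (chr6:135279087-135400572) held 27 peaks over 121.5 kb, with a sum of 137.6. It contained Pbp2 and Emp1, of which Emp1 encodes a small membrane protein of the PMP22 family. Its peaks were lower in fold, with a median of 4.20, but stood over a higher local expectation (median 7.12 fragments). The peak with the highest fold had 204 fragments at its summit and a fold of 11.4, whereas the strongest peak of C002 reached a fold of 15.2 with 93 fragments. Fold and fragment number therefore rank these peaks in opposite order.

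C004 on chromosome 1 (chr1:71936770-72033901) lay far from coding genes. Its 18 peaks summed to 123.9, and its nearest coding TSS was that of Mreg, which encodes melanoregulin, at 178.4 kb. Most of its peaks were low, with a median fold of 4.61, and 3 peaks stood well above the rest at 16.6, 15.9 and 13.8. Of these, only the last had the AP-1 letters.

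**Figure D2:**
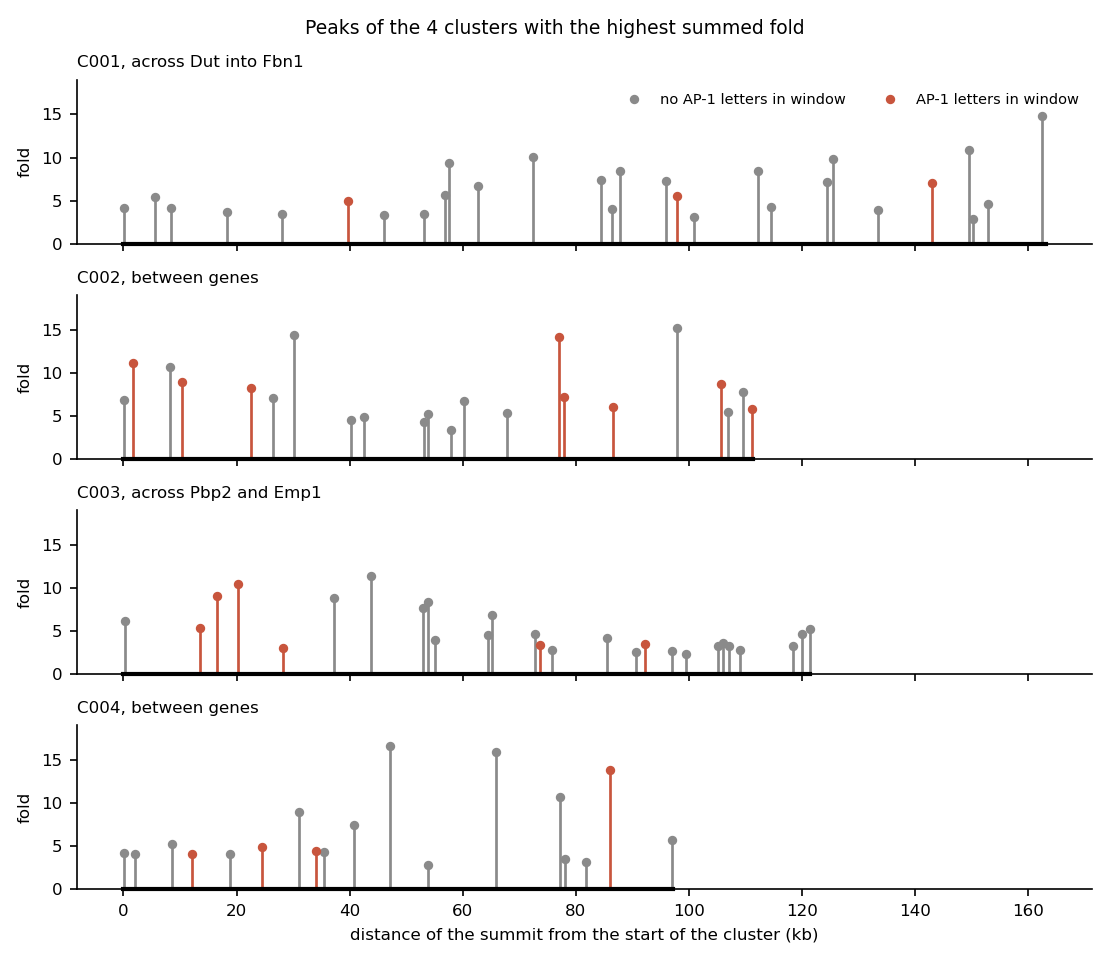
Fold enrichment of each distal peak of the 4 clusters with the highest summed fold, against the distance of its summit from the start of the cluster in kb. Red marks the AP-1 letters within 50 bp of the summit and the black bar the span; C002 has 8 red peaks of 22 and C001 has 3 of 28.

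The other clusters of the top 10 summed to between 95.5 and 104.8. C005 (17 peaks) reached into Bdkrb2, which encodes the bradykinin B2 receptor. C006 (17 peaks) lay wholly within Apbb2, an adaptor that binds the amyloid precursor protein. C009 (14 peaks) lay within Stard13, which encodes a GTPase-activating protein. The remaining 3 overlapped no coding gene. C007 (15 peaks) lay 75.2 kb from the TSS of Mtap, an enzyme of methionine salvage. C008 (13 peaks) lay 12.2 kb from that of Rassf6, and C010 (12 peaks) lay 95.8 kb from that of the sorting nexin gene Snx13. The 5 widest clusters were C001 to C005. These also had the most peaks, with C005 and C006 tied at 17.

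The densest clusters were of another kind, short and modest in sum. C338 on chromosome 8 packed 7 peaks into 5.17 kb, or 13.5 per 10 kb, with folds of 7.35, 6.46, 7.23, 3.88, 5.70, 5.36 and 10.2 in order along the chromosome. None of them had the AP-1 letters. Its nearest coding TSS belonged to the predicted gene Gm21119. C662 near Rpia, an enzyme of the pentose phosphate pathway, had 5.59 peaks per 10 kb and a sum of 29.8. C634, which lay 114.7 kb from the TSS of the ubiquitin ligase gene Hace1, had 5.33 per 10 kb and a sum of 32.1. Across clusters, the number of peaks per 10 kb and the mean fold had a Spearman correlation of -0.28, again as a description.

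Several clusters often occurred in one region. Of the 697, 165 (23.7%) lay within 100 kb of another cluster, while the median distance to the next was 456.2 kb. Within 1 Mb, the highest number was 6, on chromosome 1 (chr1:131455657-132312988), with 45 peaks around Srgap2, Cdk18, Lemd1 and Klhdc8a. The highest summed fold within 1 Mb was also on chromosome 1 (chr1:71744907-72476866), where 5 clusters held 50 peaks with a sum of 359.4. This stretch begins with C204 upstream of Fn1, which encodes fibronectin, and includes C004.

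The clusters were spread unevenly over the chromosomes, and each of the 19 had some. There were between 1.37 clusters per 10 Mb on chromosome 18 and 4.29 on chromosome 11. Distal peaks themselves were uneven, with 15.6 per Mb on chromosome 18 and 24.7 on chromosome 11. They ran from 12.6 per Mb on chromosome 14 to 25.5 on chromosome 15. The part of peak density or of copy number in the spread of clusters was not tested. The share of distal peaks that lay in clusters ran from 5.94% on chromosome 18 to 14.6% on chromosome 1.

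Under this rule, peaks in clusters had nearly the fold of other distal peaks, with a ratio of medians of 0.999 (95% interval 0.967 to 1.02). The ratio was 0.878 (0.779 to 0.937) with a stitching gap of 5 kb and 1.03 (1.01 to 1.04) with 25 kb. The median fold was 5.53 (quartiles 3.97 and 8.27) in the 5263 clustered peaks and 5.54 (4.18 and 8.14) in the 41092 others. Folds of 10 or more were found in 15.2% of each. The number of fragments at the summit did differ, with a median of 32 in clusters and 25 outside. So did the local expectation of the peak caller, with medians of 4.76 and 3.31 fragments. In 33.9% of the other distal peaks the expectation equalled the genome-wide background of 2.81 fragments, as against 9.42% of the clustered peaks. The peak caller sets the expectation from the fragments around a peak, so that nearby peaks enter the denominator of each other's fold. The part of this in the equal folds was not tested.

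The fragment numbers were ordered by group size. The median at the summit was 22 for single peaks, 25 for pairs, 28 for groups of 3 to 5, 32 for clusters of 6 to 9 and 33 for clusters of 10 or more. The median expectation was 2.81, 3.37, 4.03, 4.67 and 5.23 in the same order. Median fold stayed between 5.22 and 5.63 and was lowest in the clusters of 10 or more. Clustered peaks were also somewhat wider, with a median of 321 bp as against 274 bp.

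**Figure D3:**
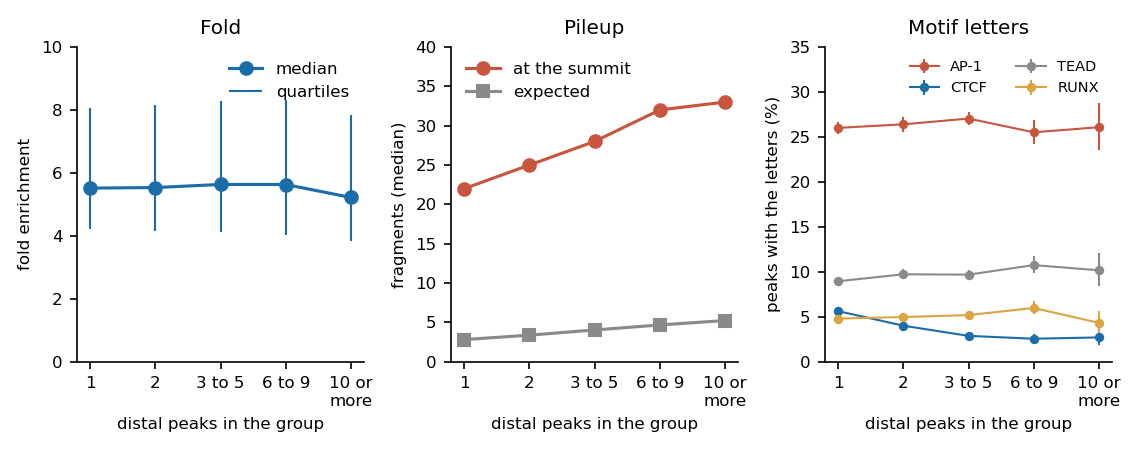
Distal peaks by the number of distal peaks in their stitched group. Left, median fold with quartiles, between 5.22 and 5.63 in every class; middle, median fragments at the summit (22 to 33) and expected (2.81 to 5.23); right, share of peaks with the letters of 4 motifs within 50 bp of the summit, with 95% exact binomial intervals, where CTCF goes from 5.62% to 2.70% and AP-1 stays between 25.5 and 27.0%.

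The AP-1 letters were found at a similar share in clusters and in other distal peaks, with a ratio of 0.97 (0.91 to 1.03 from the 95% limits of the 2 shares). They were found in 1349 of the clustered peaks, or 25.6% (24.5 to 26.8%), and in 26.5% of the other distal peaks (26 to 26.9%), as against 8.19% of peaks within 1 kb of a TSS. In windows 500 bp away from the summits, the share was 2.24% for clustered and 1.81% for other distal peaks. Within clusters, peaks with the letters had a median fold of 6.52 and those without 5.23. From the lowest to the highest quartile of fold among distal peaks, the share with the letters went from 17.5 to 33.7% in clusters and from 18.3 to 35.3% outside them.

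Single clusters differed widely in AP-1 content. In 95 clusters no peak had the letters, in 199 at least 3 peaks did, and in 84 at least 50% of the peaks did. No cluster had them in all of its peaks. The strongest peak had them in 237 clusters, or 34%.

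Among the other motifs, CTCF stood out by its lower share in clusters. CTCF is an insulator protein that marks the boundaries of chromatin loops. Its motif was found in 2.58% of clustered peaks (2.17 to 3.05%) and in 4.24% of other distal peaks (4.05 to 4.44%). The share was 5.62% in single peaks, 4.00% in pairs and 2.87% in groups of 3 to 5. The TEAD letters (GGAATG) were found in 10.6% of clustered and 9.41% of other distal peaks, and the RUNX letters in 5.62 and 4.97%. The intervals of the 2 classes did not overlap for TEAD (9.80 to 11.5% and 9.13 to 9.69%) and did for RUNX (5.02 to 6.28% and 4.77 to 5.19%). The E-box was at 8.28 and 7.45%, with intervals of 7.55 to 9.06% and 7.20 to 7.71% that overlapped. The cAMP response element TGACGTCA, bound by CREB and ATF proteins, was rare. It was found in 20 clustered peaks (0.380%, 0.232 to 0.586%) and in 0.185% of other distal peaks (0.146 to 0.231%). Its share was not ordered by group size, at 0.237% in single peaks, 0.128% in pairs and 0.170% in groups of 3 to 5. It was 0.434% in clusters of 6 to 9 and 0.180% (2 peaks) in clusters of 10 or more. The ETS letters CCGGAAG, at 7.32% in peaks near TSSs, were at 0.551% in clusters and 0.752% in the other distal peaks. The forkhead letters were at 1.75% in both. The octamer ATTTGCAT was at 0.646 and 0.518%, the CArG box of SRF at 0.760 and 0.596%, and the full site of NFI at 0.209 and 0.151%, all with overlapping intervals. Windows away from the summits were searched for the AP-1 letters only. The background level of the other motifs, such as the short TEAD letters, is therefore not known here.

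Clustered peaks lay between genes more often than other distal peaks did. Of the clustered peaks, 53.0% had their summit between annotated genes, 43.9% in an intron and 3.06% in an exon. For the other distal peaks, these shares were 46.1, 49.9 and 3.96%. Protein-coding genes held 38.0% of the clustered summits and 46.6% of the others, and in the clusters of 10 or more peaks they held 32.3%. The rule removes peaks at the TSSs of all annotated genes, and an intergenic position is partly what it leaves, in both classes.

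Taken as spans, 394 of the 697 clusters (56.5%, interval 52.8 to 60.2%) overlapped a protein-coding gene. Of these, 170 lay wholly within one gene. The other 303 overlapped none. A coding TSS fell inside the span of 225 clusters, and 176 spans contained at least 1 peak within 1 kb of a TSS, which the rule leaves out of the sums. The distance from the span to the nearest coding TSS had a median of 9.93 kb, and 70 clusters lay more than 100 kb away. The farthest was C214, at 529.4 kb from the TSS of Hsf2, a heat shock TF. For comparison, the median distance was 22.1 kb for single peaks, 17.9 kb for pairs and 15.8 kb for groups of 3 to 5, but a wider span reaches further on either side, and its part in this order was not tested.

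The genes with the nearest coding TSS to a cluster had an open promoter more often than coding genes at large. In all, 685 of 20807 coding genes on these chromosomes were nearest to a cluster (3.29%), and 503 of them (73.4%) had a peak within 1 kb of a TSS, as against 55% of all coding genes. Clusters overlapped 460 coding genes (2.21%). These were long, with a median of 56.8 kb as against 17.6 kb over all coding genes. Gene length moves with the overlap, since 5.06% of coding genes of 50 kb or more were overlapped and 1.36% of shorter ones. A TSS within 100 kb of a cluster was found for 1895 coding genes (9.11%).

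For 7 lists of genes that fibroblasts use, the share that was nearest to a cluster was several times the background. Of their 204 genes found on these chromosomes, 53 (26%, interval 20.1 to 32.6%) were nearest to a cluster, as against 3.29% of all coding genes and 4.40% of coding genes with a promoter peak. Overlap was found for 36 genes (17.6%), as against 2.21%. Among all coding genes of 50 kb or more, 6.56% were nearest to a cluster and 5.06% were overlapped. Of the 204, 172 had a promoter peak, and 52 of these were nearest to a cluster (30.2%). In 4 lists of other cell types (epithelial, neuronal, blood, endoderm and liver), 2 of 62 genes were nearest to a cluster (3.23%) and 0 were overlapped, and 13 had a promoter peak. By distance the contrast was smaller. The share with a TSS within 100 kb of a cluster was 9.11% over all coding genes. It ran from 19.6% (growth factors and receptors) to 42.9% (contractile cytoskeleton) in the 7 lists. The 4 lists of other cell types had 6.67% (neuronal) to 16.7% (epithelial). In the 7 lists, median gene length ran from 8.4 kb (AP-1 subunits) to 77.7 kb (adhesion). In the other 4 it ran from 7.82 kb (epithelial) to 28.5 kb (neuronal). The part of gene length in these shares was not tested. The lists were drawn up with earlier results of these data known, and no set test was made.

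**Figure D4:**
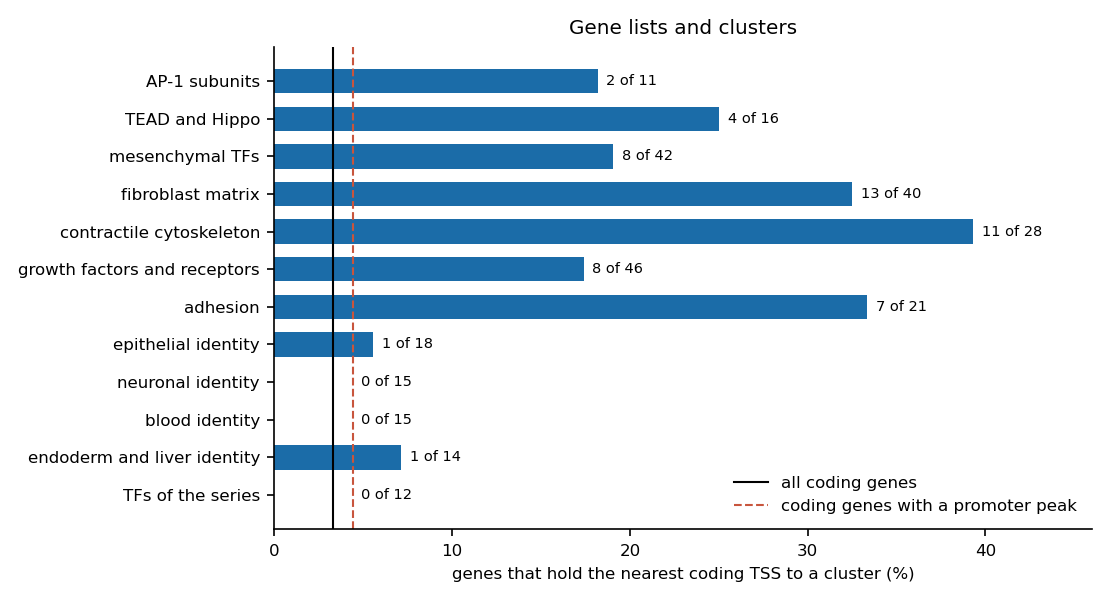
Share of the genes of each list that hold the nearest coding TSS to a cluster, in percent, with the numbers beside the bars. The black line is the share of all coding genes (3.29%) and the dashed line that of coding genes with a promoter peak (4.40%); the 7 upper lists lie between 17.4 and 39.3%.

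Matrix genes made up the list with the most hits, with 13 of 40 nearest to a cluster and 7 overlapped. Fibrillar and basement membrane collagens were among them. Col1a2 and Col3a1, which encode chains of the type I and type III collagens of connective tissue, had 2 clusters each. The cluster over Col3a1, C361, had peaks with folds of 9.45, 8.22, 7.46, 3.76, 3.52, 5.28 and 7.48, of which the first is the one printed above. A second, C202, lay 269.4 kb from its TSS, with 7 peaks of 3.02 to 11.5. At Col1a2, C475 (6 peaks, sum 40.3) overlapped the gene and C112 (8 peaks, sum 62.3) lay 72.1 kb from its TSS. Col6a3, a chain of the microfibrillar type VI collagen, was also touched by 2 clusters, C256 and C405. Col4a1 and Col4a2, the neighbouring genes of the basement membrane collagen, had 1 each.

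Fn1, the gene of fibronectin, had C204 upstream at 91.7 kb from its TSS. The folds of its 8 peaks were 4.20, 3.47, 2.74, 11.5, 8.02, 14.5, 4.99 and 3.93. The 3 highest lay side by side, and these were also the 3 with the AP-1 letters. Tnc, which encodes the matrix protein tenascin C, had C184 at 18.3 kb, where 4 of 7 peaks had the letters and the folds ran from 3.44 to 12.8.

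Has2, which encodes the enzyme that makes hyaluronan, was 1 of 3 genes that were nearest to as many as 3 clusters, the others being Gas7 and Mreg. All 3 of its clusters lay at a distance, at 84.7 kb (C023), 195.4 kb (C555) and 253.1 kb (C170) from its TSS, on the side of the 3′ end of the gene. The folds of C023 were 17.3, 2.8, 7.52, 7.66, 10.9, 13.9, 10.5, 6.87 and 6.92, so that only 1 of its peaks was below the median of all distal peaks. In C170 a single peak of fold 19.6, with 167 fragments, stood above the other 5, which ran from 4.46 to 11.9. C555 was lower, with 3.24 to 10.6.

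Further matrix genes with a cluster included Timp3, an inhibitor of matrix metalloproteinases, Mmp2, a gelatinase, Tgfbi, an adhesion protein induced by TGF-beta, and Col6a2. Timp3 had 2 clusters, C096 and C559, both inside Syn3, the gene in which Timp3 is nested. Fbn1 was overlapped by C001 but was not its nearest TSS. Genes of the list with no cluster nearest to or over them included Col1a1, Col5a1, Postn, Sparc and Thbs1.

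The contractile cytoskeleton had the highest share of the lists, with 11 of 28 genes nearest to a cluster and 9 overlapped. Actb, the gene of beta-actin, lay inside C244, whose folds were 2.54, 2.66, 3.05, 15.5, 7.13, 5.36, 7.74, 3.24 and 3.60. One peak with 135 fragments stood far above the rest, and it had the AP-1 letters. Vim, the gene of vimentin, the intermediate filament protein of mesenchymal cells, lay inside C573, where no peak had the letters and folds ran from 2.88 to 8.28. Lmna, the gene of lamins A and C, lay inside C302, with 12 peaks of which the highest reached only 5.74. Tpm1, Vcl, Actn4, Lpp, Pdlim5, Cdc42ep3 and Mrtfb had 1 cluster each. Mrtfb encodes a coactivator of SRF that responds to actin.

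For adhesion, 7 of 21 genes were nearest to a cluster. These were the integrin genes Itgb3, Itga3 and Itga5, the hyaluronan receptor gene Cd44, the focal adhesion genes Ptk2 and Pxn, and the caveolin gene Cav2. Itga5, whose product pairs with integrin beta 1 as the fibronectin receptor, was contained in C131, which had 11 peaks of 2.5 to 11.6. Ptk2, the gene of focal adhesion kinase, had C390 at 24.8 kb, with a strongest peak of fold 16.0 that had the AP-1 letters.

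Of the growth factors and receptors, 8 of 46 were nearest to a cluster and 6 were overlapped. Met, the receptor of hepatocyte growth factor, had C146 inside the gene, with folds of 10.1, 10.2, 4.30, 14.0, 3.03 and 16.6, the highest median of the clusters at listed genes (10.2). Tgfbr3, a co-receptor of TGF-beta, and Acvr1, a receptor of the BMP family, were overlapped as well. Lif, the gene of a cytokine of the interleukin 6 family, was overlapped by C381 and was the only one of the 53 without a promoter peak. Ccl2, the gene of a chemokine for monocytes, had C336 at 2.1 kb. Fgfr2 counts as overlapped by C083 and C322, but its annotated body was 2960.9 kb long and both lay far from its TSS.

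Among TF genes, 8 of 42 mesenchymal TFs were nearest to a cluster. Among them were Nfib, Foxc2, Klf4, Klf6, Ets1, Ets2 and Bach2. Ets1 had 2 clusters, of which C026 (9 peaks, sum 82.6) lay 82.6 kb from its TSS with a strongest peak of fold 17.8, and C626 lay within the gene at 1.65 kb with a highest fold of 8.90. Nfib held C206, where 5 of 8 peaks had the AP-1 letters. Foxc2, a forkhead TF of mesenchyme, was contained in C596. Zeb2 and Nfix were overlapped without being the nearest gene.

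The genes of AP-1 and of the TEAD pathway, whose sites were searched above, gave 2 of 11 and 4 of 16. Jun lay 29.4 kb from C055, a cluster with 11 peaks and a median expectation of 11.1 fragments. Its folds were 5.47, 9.74, 6.06, 3.48, 3.32, 8.91, 9.52, 3.13, 4.73, 6.51 and 11.8, and 3 of its peaks had the AP-1 letters. Fosb was contained in C542, with 6 peaks. For the TEAD pathway, Tead4 and its cofactor gene Vgll4 were overlapped, and Ccn1, a matricellular protein gene regulated by the YAP coactivator of TEAD, lay 26.3 kb from C195. Amotl2, an inhibitor of YAP, lay 29.0 kb from C523.

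**Figure D5:**
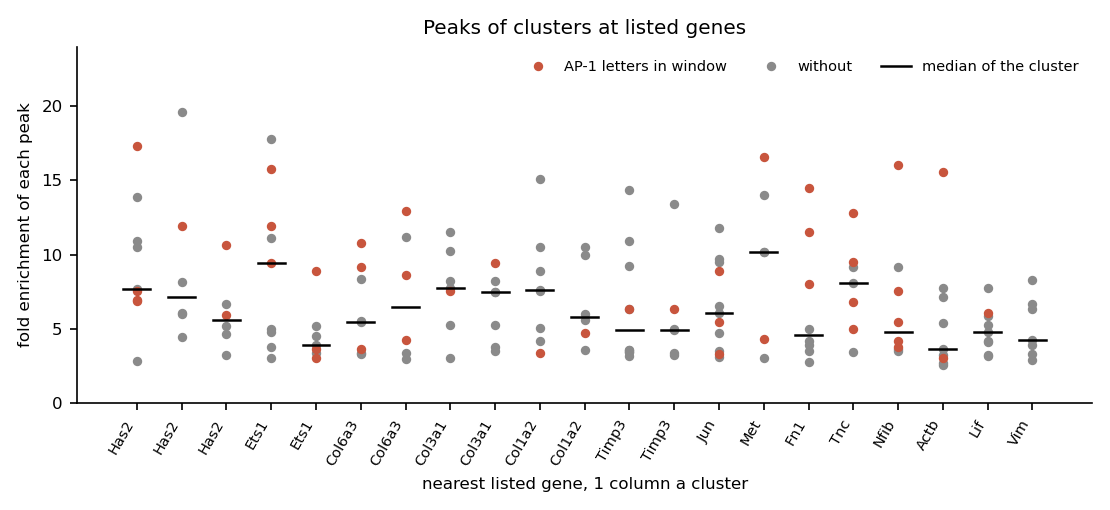
Fold enrichment of each distal peak in 21 clusters nearest to, or over, genes named in the text, 1 column per cluster, with the median as a bar. Red peaks have the AP-1 letters within 50 bp of the summit; the highest single peak is the one of fold 19.6 near Has2, and Vim has no red peak.

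In the 4 lists of other cell types, 2 genes were nearest to a cluster. Krt8, the gene of the keratin of simple epithelia, lay 8.64 kb from C614 (6 peaks, sum 33.4). Foxa2, a forkhead TF of endoderm, had the nearest TSS to C056 and C160, at 123.9 and 306.9 kb, and no peak at its own promoter. Genes of the fibroblast lists were also counted at such distances, as Klf4 at 175.4 kb and Klf6 at 212.8 kb, both with a promoter peak. More genes of other cell types lay near a cluster without being the nearest. A TSS within 100 kb of one was found for 3 of 18 epithelial and 1 of 15 neuronal genes. The same held for 2 of 15 blood and 1 of 14 endoderm and liver genes, as against 9.11% of all coding genes. Of the genes of the TFs that were overexpressed elsewhere in the series, 0 of 12 were nearest to or overlapped by a cluster, and 2 of them had a promoter peak.

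The share of groups nearest to a gene of the 7 fibroblast lists was ordered by group size. It was 2.81% for single peaks, 3.57% for pairs, 4.84% for groups of 3 to 5, 8.44% for clusters of 6 to 9 and 10.8% for clusters of 10 or more (10 of 93). For the 4 lists of other cell types it was 0.405, 0.383, 0.279, 0.497 and 0% in the same order. The count of 0 among 93 clusters rests on few genes. The share of groups whose nearest gene had an open promoter went from 66.8% for single peaks to 80.6% for clusters of 10 or more. Where several TSSs fell inside a span, all of their genes counted as nearest. A wider span thus had more chances to meet a listed or open gene, and the part of this in these orders was not tested.

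Genes that were overlapped by several clusters numbered 23. Fmnl2, a formin that assembles actin filaments, had 3 clusters with 26 peaks and a summed fold of 171.5. Gas7, a growth arrest gene of the F-BAR family, had 3 with 19 peaks and a sum of 121.7. Ahnak, which encodes a very large scaffold protein, had 2 with 19 peaks in a body of 87.6 kb. These genes were not part of any list.

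Whole genes were contained in some spans. The clusters contained 79 protein-coding genes in 70 spans, 82 long intergenic non-coding RNAs and 24 annotated microRNAs. Among the latter were Mir21a in C294 and Mir199a-2 and Mir214 in C117, named after the list had been seen because these microRNAs are well known in fibroblasts. Others of the 24, such as Mir205 in C346 and Mir135b in C653, were not picked, so the choice does not describe the set. C294 held 8 peaks with a sum of 48.1 over Vmp1, and C117 held 7 with a sum of 61.9 within Dnm3. Mature sequences of Mir21a, Mir199a-2 and Mir214 in RefSeq (GRCm38.p6) follow, with the seed (bases 2 to 8), which pairs with target RNAs, in capitals.
miR-21a-5p (Mir21a): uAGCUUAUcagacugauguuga
miR-199a-5p (Mir199a-2): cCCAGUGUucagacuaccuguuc
miR-199a-3p (Mir199a-2): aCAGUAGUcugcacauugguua
miR-214-3p (Mir214): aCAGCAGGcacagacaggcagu
The 4 seeds differ from one another. Peaks in the span of a cluster show open chromatin around these genes and do not measure the microRNAs.

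A few clusters lay in repeats or in regions of high local signal, and whether the list had been cleared of blacklisted regions was not tested. In 4 clusters, the median peak was more than 50% soft-masked, that is, annotated as repeat in the reference. C672 on chromosome 8 reached 99.1%, and the others were C377, C535 and C688. Together they held 33 peaks. C084 at Sfi1 had the highest median expectation, 26.1 fragments, as against a median of 4.82 over clusters. Over all clusters the median masked share was 8.07%.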

How the data were processed

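The input was the ATAC-seq peak list of parental NIH-3T3 cells, from 1 library. The other 30 samples were left out. The authors mapped read pairs with STAR against mm10, discarded reads without a unique position and, with Picard, duplicates, and ran MACS2 on whole fragments. The submitters' processing notes name STAR 2.5.3a and MACS2 2.1.1.20160309. The authors deposited for each peak a fold enrichment (a ratio), the −log10 of p and of q and a score derived from q. The methods give sequencing depth only as a range over all libraries, and the peak list does not hold the number of reads of this one. For ATAC-seq, the methods refer to the peak calling of ChIP-seq, in which blacklisted regions were discarded; whether this list was so filtered was not tested. The fragments at each summit and the local expectation were therefore solved from the deposited fold and −log10 p, which gave whole numbers within 0.02 for 99.997% of the peaks. The calculation and the stitching were tested on simulated data.

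Distance to a TSS was taken from the edges of a peak to any transcript start of GENCODE M21 (GRCm38, the same build). Stitching and the counting rules are given with the results. Motifs were searched in GRCm38 on both strands within 50 bp of each summit, and the CTCF, CArG box and NFI motifs as degenerate patterns. A promoter was called open where a peak lay within 1 kb of a TSS of the gene. Proportions carry exact Clopper-Pearson intervals. Named clusters were the 10 with the highest summed fold, the 5 with the most peaks, the 5 widest, the 3 densest and those overlapping or nearest to listed genes. The windows printed for listed genes, the genes with several clusters and the microRNAs were chosen after their values were seen. A few genes of the lists are counted but not reported here by name. The clusters and gene lists were chosen with earlier results of these data known. Alternatives changed the gap, the number of peaks, the peak filter, the distance to the TSS and the motif window. Scripts were written in Python 3.11.15 with SciPy 1.17.1, NumPy 2.4.6, matplotlib 3.10.9 and pandas 2.3.3.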

Additional observations from a re-analysis of the deposited data

Results flagged for a closer look

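Chromosomes X and Y were outside the rule. They are listed here because they hold clusters that no result above uses. By the same stitching, chromosome X had 4 clusters. They held 27 of its 820 distal peaks (3.29%), a share below the lowest among chromosomes 1 to 19 (5.94%) and below the 11.4% over all of these. Chromosome X also had fewer distal peaks than any of chromosomes 1 to 19, where the lowest count was 1364 on chromosome 18. The part of this in its lower share was not tested. Its cluster with the highest sum had 7 peaks with a summed fold of 61.3 and lay 13.1 kb from the TSS of Tsc22d3, a leucine zipper gene induced by glucocorticoids. On chromosome Y, 7 of 17 distal peaks formed 1 cluster of 5.40 kb.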

How the results depend on the processing

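The number, size and gene overlap of the clusters depended on the rule. The ratio of median fold, 0.999 by the rule, took values on either side of 1 under the alternatives. It was 0.878 (0.779 to 0.937) with a gap of 5 kb and 0.940 (0.891 to 0.985) with at least 10 peaks. With a gap of 25 kb it was 1.03 (1.01 to 1.04), and for summit fragments 1.28 (1.28 to 1.32). These limits treat the peaks of 1 library as independent and are not a test against 1. The ratio of AP-1 shares stayed between 0.932 and 1.04, and was 0.942 (0.887 to 0.999) with TSSs of protein-coding genes only. No paired analysis was possible because the peaks come from a single library, and no replicate could be left out. A value is taken as moved where it left the 95% interval of the value reported, which for ratios was built from the 95% limits of both classes. The number of clusters is taken as moved where it changed by more than 1.5 times. Of 95 planned values, 45 did not move and 50 did. The cause of a move was not tested beyond the construction of each alternative.

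With a gap of 5 kb, there were 46 clusters with 0.667% of distal peaks, a median span of 14.8 kb, a median sum of 36.0 and a ratio of median fold of 0.878; 34.8% overlapped a coding gene, the median distance to a coding TSS was 21.3 kb and 0.0817% of coding genes were overlapped. With a gap of 25 kb, these values were 1833, 36.0%, 63.7 kb, 53.3, 1.03, 71.4%, 0 kb and 9.48%. With at least 5 peaks, there were 1276 clusters with 17.6% of distal peaks, a median span of 27.0 kb and sum of 38.5, over 3.63% of coding genes. With at least 10 peaks, there were 93 with 2.40%, 55.1 kb, a sum of 71.9, a fold ratio of 0.940, a distance of 6.96 kb and 0.365% of coding genes.

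With peaks of fold 5 or more, there were 92 clusters with 2.31% of distal peaks, a span of 35.1 kb, a sum of 56.4, AP-1 letters in 32.0% of clustered peaks at 1.04 times the share outside, 41.3% over a coding gene, a distance of 25.9 kb and 0.207% of coding genes. With distal peaks over 2.5 kb from any TSS, the share was 9.17%, the span 32.3 kb, the overlap 45.0%, the distance 16.9 kb and the genes 1.21%. With TSSs of protein-coding genes only, 13% of distal peaks were clustered over 2.59% of coding genes, and without peaks more than 50% soft-masked 10.2% over 1.84%. A q of at most 0.01 moved none of the 10 values.

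With summit fragments in place of fold, the ratio of medians was 1.28. With windows of 100 bp to either side, the AP-1 share was 36.3%, and over whole peaks the ratio of AP-1 shares was 1.04. With all annotated genes, 76.2% of clusters overlapped one. The share of fibroblast-list genes nearest to a cluster, an alternative added after the data were seen, was between 4.43 and 11.3 times the share of all coding genes under the 9 alternatives and the rule itself. At the low end, with a gap of 5 kb, it rests on 2 of 204 genes (0.98%, interval 0.119 to 3.5%), and the interval includes the share of all coding genes (0.221%).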

Other observations

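The clusters C007 and C077 on one side and C115 and C325 on the other side of a stretch of chromosome 4 enclose Cdkn2a and Cdkn2b, which encode inhibitors of cyclin-dependent kinases and the p53 activator ARF. Over 158.1 kb, from before the first gene to beyond the second, the list held no peak, and so 0 peaks at the promoters or in the bodies of both. Such a distance between neighbouring peaks is not rare, as 2226 of 62151 (3.58%) were at least as long, with a median of 12.1 kb, and 45.0% of coding genes had no promoter peak. Of the flanking clusters nearest to the pair of genes, C007 had 15 peaks and lay at 212.5 kb, and C115 had 7 peaks and lay at 146.9 kb. This stretch was chosen after the peaks were seen, and the deposited list does not tell closed chromatin from absent or unmapped DNA.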
